A study of Homo sapiens with 18 samples.

Results

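Accessibility was examined at 9 transcription factor genes of the Müllerian duct and of serous ovarian carcinoma, PAX8, WT1, SOX17, MECOM, EMX2, PAX2, LHX1, MEIS1 and GATA6. Every window of the deposited ATAC-seq table that overlapped the GENCODE span of one of these genes, extended by 20 kb on both sides, was taken. This gave 111 of the 89428 windows in the table, of which 27 were promoter windows (from 1 kb before to 100 bases after a protein-coding start), 82 were distal, and 2 near LHX1 were promoter windows of another gene. MECOM held 32 windows, PAX8 and MEIS1 19 each, WT1 11, LHX1 9, EMX2 7, SOX17 and PAX2 5 each, and GATA6 4. The 111 windows formed 54 runs of neighbours, and because neighbouring windows share 101 bases they are not independent.

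The study paired platinum-sensitive ovarian cancer lines with resistant partners, with 3 replicate libraries for each of 6 lines. A2780, which the labels place as endometrial or ovarian, was paired with CP70, a derivative made resistant in culture. PEA1 with PEA2, and PEO1 with PEO4, are high-grade serous lines taken from a patient before and after clinical resistance, and PEO1 was itself derived after platinum treatment. All lines grew in RPMI-1640 with glutamine and 10% fetal bovine serum with no treatment named in the labels, each line is a single culture-adapted model, and nothing states whether replicates came from separate cultures, so p-values measure only the spread between these libraries.

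The Müllerian duct arises from the coelomic epithelium beside the intermediate mesoderm and gives rise to the oviduct and uterus. PAX2, PAX8, LHX1 and EMX2 act in the forming duct, and PAX8, WT1, SOX17 and MECOM are transcription factors that tubal epithelium or serous carcinoma commonly retain. MEIS1 is a homeodomain partner of HOX and PBX proteins, and GATA6 is a zinc finger factor of mesoderm and endoderm. ATAC-seq marks DNA that the Tn5 transposase can reach, which at a start site usually accompanies an active or poised promoter but is not a measure of RNA.

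The reference sequence just before 6 starts is shown for 1 annotated start of WT1, MECOM, EMX2 and MEIS1, and for the outer and internal starts of PAX8 so that they can be compared. Each is the 200 bases before the annotated start, 5′ to 3′ in the direction of transcription, from GRCh37, the build of the files. Capitals mark matches on either strand to 8 short words: GGGCGG for the GC box, CCAAT for the box of that name, TATAAA for the core box of some promoters, TGACTCA for AP-1, AGATAA for GATA factors, GGAATG for TEAD factors, ACAAAG for SOX factors and TGACAG for MEIS factors. The PAX8 stretches lie on the minus strand at chr2:114036499-114036698 (outer start) and chr2:113999357-113999556 (internal start), the WT1 stretch on the minus strand at chr11:32457111-32457310 and the MECOM stretch on the minus strand at chr3:169381564-169381763. The EMX2 stretch lies on the plus strand at chr10:119301756-119301955 and the MEIS1 stretch on the plus strand at chr2:66662057-66662256.
PAX8 outer start: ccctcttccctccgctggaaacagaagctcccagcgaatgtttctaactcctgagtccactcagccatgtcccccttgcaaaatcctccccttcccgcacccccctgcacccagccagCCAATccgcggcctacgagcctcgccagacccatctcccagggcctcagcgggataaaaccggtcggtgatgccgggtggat
PAX8 internal start: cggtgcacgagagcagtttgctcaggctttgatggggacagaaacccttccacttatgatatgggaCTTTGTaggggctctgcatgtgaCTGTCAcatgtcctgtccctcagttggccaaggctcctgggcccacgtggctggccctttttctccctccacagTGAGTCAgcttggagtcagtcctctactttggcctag
WT1: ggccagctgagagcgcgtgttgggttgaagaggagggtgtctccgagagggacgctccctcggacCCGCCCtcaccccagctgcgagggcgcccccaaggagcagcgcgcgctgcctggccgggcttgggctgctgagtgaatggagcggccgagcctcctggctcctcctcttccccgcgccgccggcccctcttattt
MECOM: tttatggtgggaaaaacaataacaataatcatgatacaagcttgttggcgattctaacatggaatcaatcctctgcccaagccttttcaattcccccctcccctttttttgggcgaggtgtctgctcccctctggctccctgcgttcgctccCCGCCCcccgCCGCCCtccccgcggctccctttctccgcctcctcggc
EMX2: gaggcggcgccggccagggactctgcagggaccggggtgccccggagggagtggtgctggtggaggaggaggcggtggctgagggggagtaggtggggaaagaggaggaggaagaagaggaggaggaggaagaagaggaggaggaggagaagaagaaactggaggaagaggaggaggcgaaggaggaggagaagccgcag
MEIS1: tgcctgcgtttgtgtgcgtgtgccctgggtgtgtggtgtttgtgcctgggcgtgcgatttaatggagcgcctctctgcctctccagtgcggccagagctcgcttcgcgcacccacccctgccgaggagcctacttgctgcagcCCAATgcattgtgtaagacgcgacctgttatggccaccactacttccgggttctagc

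The PAX8 pair of starts differed in these words. The outer start held a CCAAT box beginning at base -82, which 30.4% of the 19504 stretches of this length before canonical starts also hold. The internal start held an AP-1 site at base -37, a word found in 2.49% of all such stretches, a SOX word at -134 (8.04%) and a MEIS word at -111 (9.25%). It had 3 CpG dinucleotides, against 11 at the outer start and a median of 16 over all starts. MECOM held 2 GC boxes and WT1 held 1, a word in 56.8% of stretches, and MEIS1 held a CCAAT box. The EMX2 stretch held none of the 8 words. TATAAA is found in 7.72%, AGATAA in 4.78% and GGAATG in 7.39% of all stretches. A match describes the letters only.

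Depth and background differed among the lines. The totals implied by the values ran from 8963079 reads in a PEO1 library to 60435027 in an A2780 library, so that 1 FPKM stood for 8.97 to 60.5 reads in a window. The share of reads inside the windows of the table was 8.38% to 15.6% in A2780 and CP70, 12.9% to 20.7% in PEA1 and PEA2, and 32.9% to 40.8% in PEO1 and PEO4. The median of all 13532 canonical start windows moved with it, from 2.06 FPKM in A2780 to 7.44 in PEO1. Levels are therefore also given as percentiles among the start windows of the same line. Copy number scales FPKM in the same way as accessibility does, and the 2 cannot be told apart in these data.

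In FPKM, PEO1 or PEO4 was the most open line at most members, as it was over most windows of the table. Of the 9 start windows, 4 were highest in PEO1, 2 in PEO4, and 1 each in A2780, PEA1 and PEA2. Over all 111 windows PEO1 was highest in 69 and PEO4 in 18, PEA1 in 15, PEA2 in 8, A2780 in 1 and CP70 in 0; over all windows of the table PEO1 was highest in 47.0%, PEO4 in 26.8%, PEA1 in 5.3%, PEA2 in 16.4%, A2780 in 0.359% and CP70 in 4.17%. Windows with a line mean above 2 FPKM numbered 5 in A2780 and 6 in CP70, which was 4.50% and 5.41% of the members' windows against 12.3% and 23.9% of all windows. In PEO1 the number was 77, or 69.4% against 67.9%. The mean over the 27 promoter windows was 6.59 ± 0.21 FPKM in PEO1 and 4.58 ± 0.18 in its partner PEO4 (SD, n = 3 libraries each). PEA2 followed with 2.51 ± 0.30 and PEA1 with 2.15 ± 0.34, and the lowest were CP70 with 1.10 ± 0.05 and A2780 with 0.93 ± 0.05. The same order held over the 82 distal windows, from 0.75 ± 0.04 in A2780 to 3.79 ± 0.04 in PEO1. By percentile within the line, of the 9 start windows only that of WT1 was highest in a PEO line. The PAX8 outer and GATA6 starts stood highest in PEA1, and that of PAX2 in A2780. Those of SOX17, MECOM (outer), EMX2, LHX1 and MEIS1 stood highest in PEA2. Margins over PEO1 ranged from small at PAX8 (53.1 against 52.8) to wide at GATA6 (66.5 against 25.4). The internal PAX8 start and the first EMX2 start window stayed highest in PEO1 and PEO4.

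**Figure D1:**
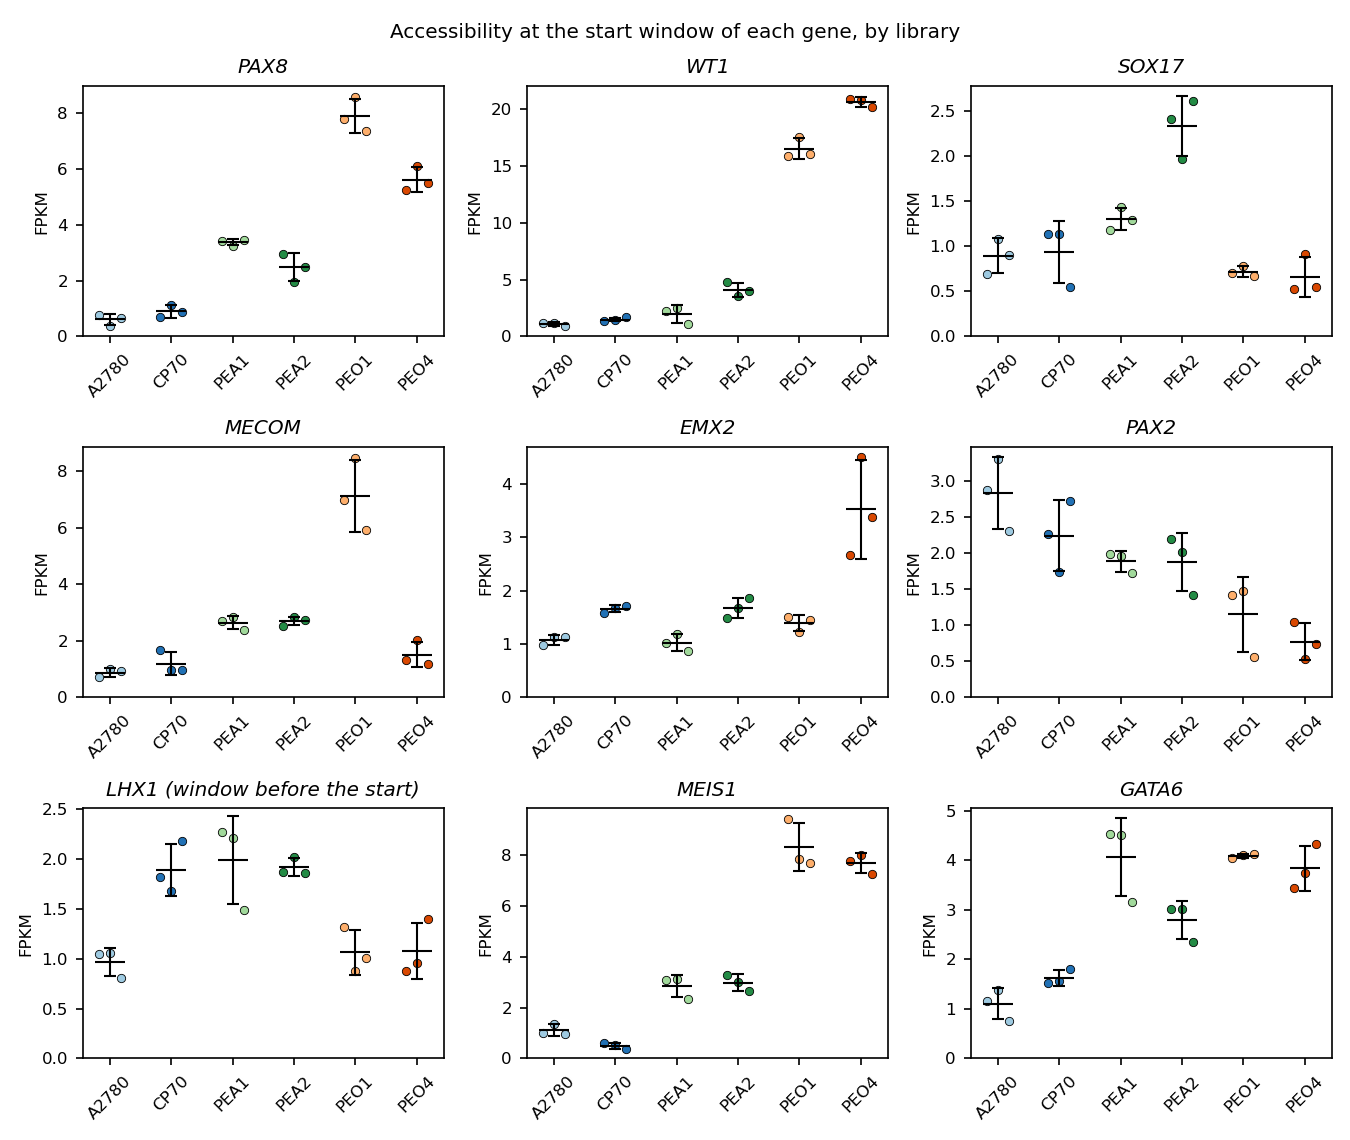
Accessibility in FPKM (y axis, from 0) at the canonical start window of each gene in the 6 lines (x axis); points are the 3 libraries of a line, and the bar and whiskers are their mean and SD. WT1 reached 20.6 FPKM in PEO4 and PAX8 7.90 in PEO1, whereas PAX2 was highest in A2780 at 2.83; for LHX1 the nearest promoter window is drawn, since no window of the table held its start.

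PAX8 encodes the paired-box factor that marks Müllerian epithelium. Its outer start window, chr2:114036300-114037300 over exon 1, read 7.36 to 8.55 FPKM over the PEO1 libraries and 5.23 to 6.10 over those of PEO4. PEA1 gave 3.24 to 3.45 and PEA2 1.97 to 2.97, while CP70 gave 0.68 to 1.14 and A2780 0.38 to 0.78. Neighbouring lines in this order did not overlap except A2780 and CP70. The highest PAX8 window lay elsewhere, at chr2:113998500-113999500 over exon 7 of the canonical transcript, where GENCODE places the start of 1 shorter transcript, 37.5 kb into the gene. The antisense gene PAX8-AS1 overlaps this window too, so its reads cannot be assigned to PAX8 alone.

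At that internal start PEO1 read 33.2, 30.2 and 31.9 FPKM and PEO4 17.9, 18.1 and 16.8. PEA1 read 7.02, 7.10 and 5.71, PEA2 8.85, 6.07 and 7.01, A2780 0.65, 0.47 and 0.78, and CP70 0.83 to 1.5. The PEA lines overlapped each other and all other neighbours in the order were apart. Within their own line these levels stood at the 98.0th percentile of start windows in PEO1, the 87.6th in PEO4, the 91.9th in PEA1 and the 94.6th in PEA2, but at the 4.3rd in A2780 and the 10.5th in CP70. The outer start stood at the 52.8th percentile in PEO1 and the 53.1st in PEA1. The window centred at -4.8 kb from the outer start was also low in the A2780 pair, at 0.41 ± 0.10 and 0.55 ± 0.15. It was at 4.04 ± 0.41 and 3.95 ± 0.94 in the PEA pair, and PEO4, with 11.2 ± 0.67, was above PEO1, with 9.27 ± 1.14, though their libraries overlapped.

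The 3′ part of PAX8 had another pattern. Between 52.8 and 69.9 kb past the start, PEA1 was the highest line in every window but that at 59.1 kb. The window over exon 12 at chr2:113975100-113976100 read 4.23, 5.36 and 3.69 FPKM in PEA1 against 1.70, 0.98 and 1.51 in PEA2, and 0.51 to 0.96 in the PEO lines. Its log2 fold change from PEA1 to PEA2 was -1.61 (SE 0.23, adjusted p = 1.99e-11), short of the threshold of 2. PAX8-AS1 overlaps this window as well.

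WT1, a zinc finger factor of coelomic epithelium, gonad and serous carcinoma, was open at its start window chr11:32456700-32457700 in the PEO lines. PEO4 read 20.9, 20.8 and 20.1 FPKM and PEO1 15.9, 17.5 and 16.1, and PEA2 read 4.78, 3.53 and 3.99. PEA1 gave 2.27, 2.52 and 1.10, CP70 1.36, 1.44 and 1.68, and A2780 1.19, 1.19 and 0.91. PEA1 overlapped CP70, and the other neighbours in the order did not overlap. The percentile within the line was 91.8 in PEO4, 84.6 in PEO1, 75.2 in PEA2, 21.9 in PEA1, and 15.9 and 16.2 in CP70 and A2780. The window also holds the start of the antisense gene WT1-AS, and ATAC-seq does not assign it to either gene. An internal start window in intron 1, 4.4 kb into the gene, was at 0.43 ± 0.09 FPKM in PEA1 and 0.39 ± 0.20 in PEA2, and open in PEO1 (7.33 ± 1.32) and PEO4 (3.99 ± 0.22).

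**Figure D2:**
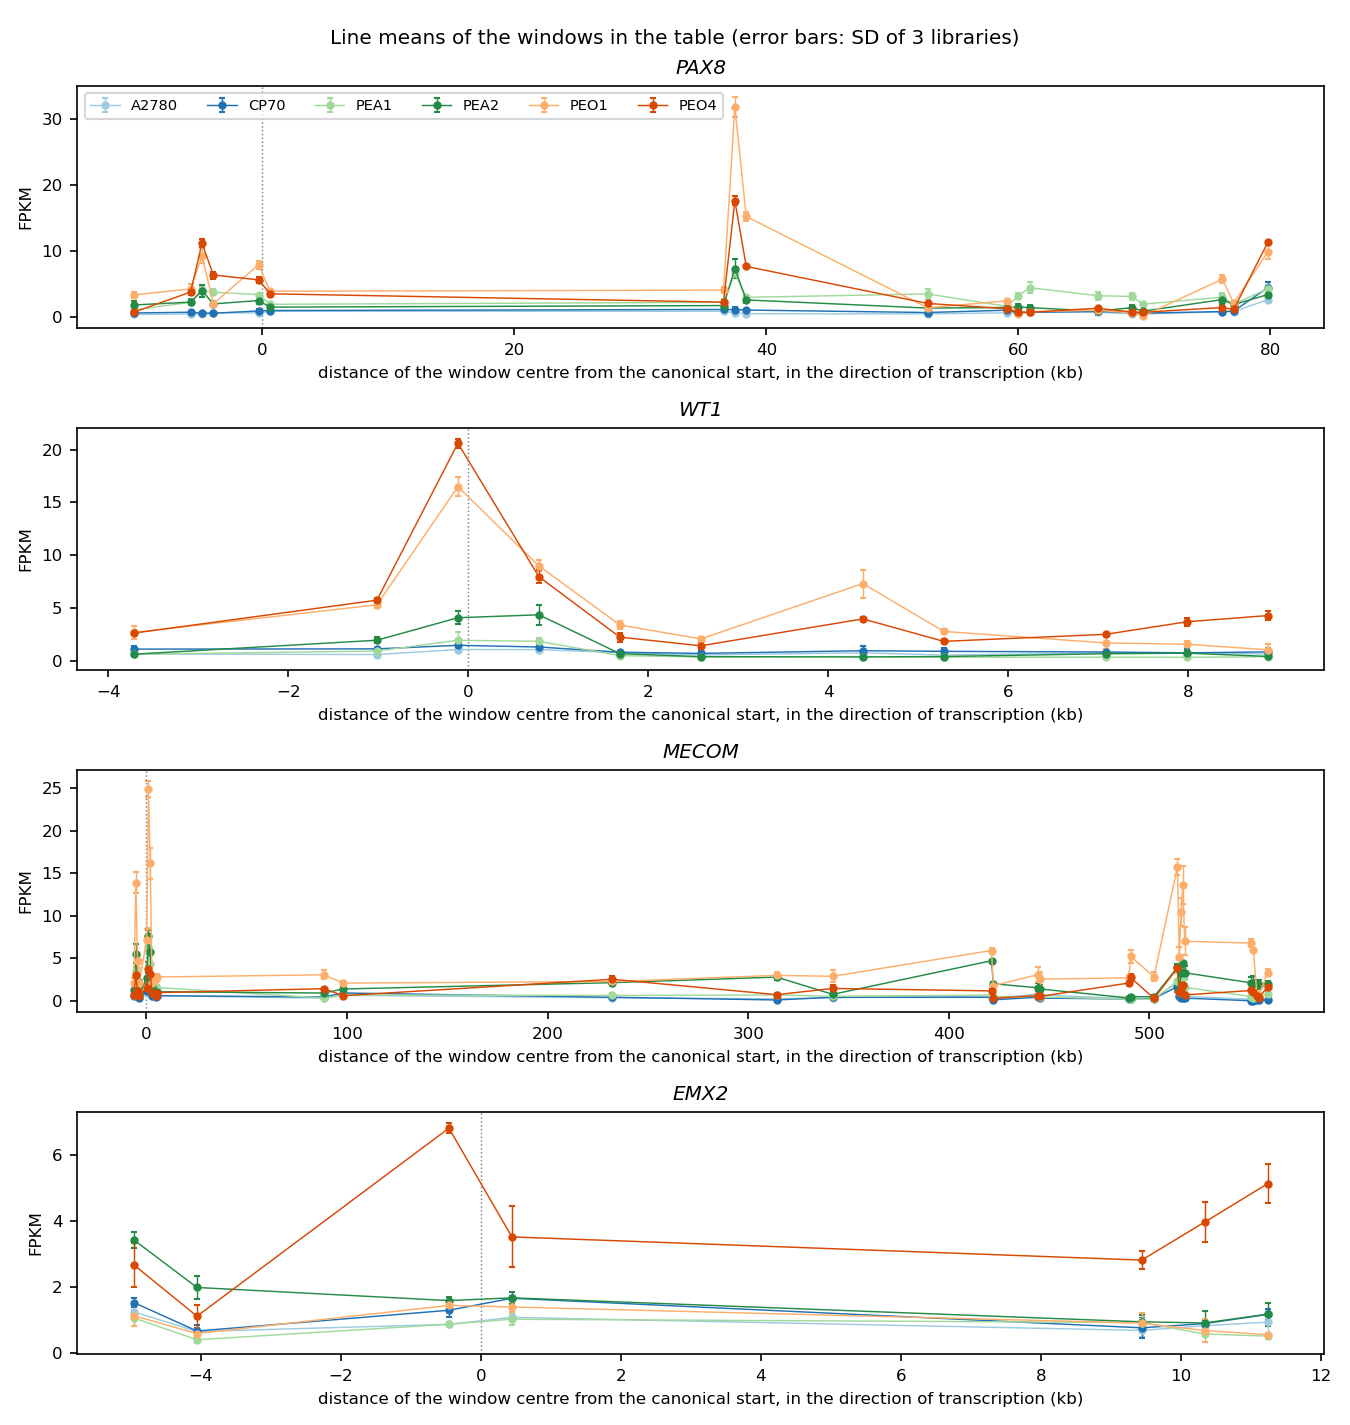
FPKM of each table window (y axis) at PAX8, WT1, MECOM and EMX2 against the distance in kb of its centre from the canonical start (x axis, dotted line at 0), with line means joined and error bars of 1 SD over 3 libraries. PAX8 peaks at 37.5 kb with 31.7 FPKM in PEO1 and MECOM at 1.0 kb with 24.9 in PEO1. EMX2 is highest in PEO4 at 5 of its windows, with 6.83 at -0.5 kb, and in PEA2 at 2. Stretches without points have no window in the table.

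MECOM encodes long and short zinc finger proteins from outer and inner starts that lie far apart, EVI1 being the short form. At the outer start window, chr3:169380900-169381900, PEO1 read 6.98, 8.46 and 5.91 FPKM and PEO4 1.34, 2.02 and 1.20. PEA1 and PEA2 overlapped at 2.64 ± 0.22 and 2.70 ± 0.16, and A2780, CP70 and PEO4 were at or below 2.02 in every library. One window further in, 1.0 kb past the start, PEO1 reached 24.9 ± 0.94 against 3.77 ± 0.85 in PEO4. At the inner starts, chr3:168864300-168865300, PEO1 read 11.1, 14.5 and 15.3, PEA2 4.56, 4.68 and 4.26, PEA1 2.47, 3.02 and 2.54, PEO4 1.69, 2.02 and 1.74, A2780 0.61, 0.97 and 0.91, and CP70 0.45, 0.36 and 0.25. Neighbouring lines in this order did not overlap, and the percentile ran from 79.8 in PEA2 and 77.5 in PEO1 to 8.8 in PEO4 and 1.0 in CP70.

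EMX2, a homeobox gene of the urogenital tract, was highest in PEO4 at both start windows in FPKM. Its first start window, chr10:119301300-119302300, read 6.74, 7.01 and 6.72 FPKM in PEO4 and between 0.81 and 1.73 in every library of the other 5 lines. In the next window, which holds the canonical start, PEO4 gave 2.67, 4.51 and 3.39, still above all other libraries, which lay between 0.86 and 1.86. The first start window stood at the 46.7th percentile in PEO4 and at the 4.8th in PEO1. Both overlap the antisense gene EMX2OS.

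SOX17, an endoderm and Müllerian SRY-box factor, had start values below 3 FPKM in every library. PEA2 was highest with 2.42, 1.97 and 2.62 FPKM, above PEA1 at 1.19 to 1.43, and PEO1 and PEO4 gave 0.72 ± 0.06 and 0.66 ± 0.22, at the 2.1st percentile of start windows in both lines. A window 18.7 kb past the start was instead open in PEO1, at 5.16 ± 0.38, with 1.94 ± 0.23 in PEO4. PAX2, the paired-box factor of nephric and Müllerian ducts, had its highest start in A2780. Its start window read 2.31 to 3.31 FPKM in A2780, the 70.8th percentile, and 0.53 to 1.05 in PEO4, the 2.5th percentile, with CP70, PEA1, PEA2 and PEO1 between them in that order of means. Neighbouring lines overlapped at each of the 5 steps, though A2780 and PEO4 themselves did not overlap.

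LHX1 encodes a LIM homeobox factor of the early duct. No window of the table held its start, and the nearest promoter window was at 0.97 to 1.99 FPKM as line means, a log2 range of 0.95. The most open LHX1 window lay upstream at -16.1 kb, with 12.9 ± 0.65 in PEO1, 11.5 ± 1.10 in PEO4, 3.95 ± 0.50 in PEA2, 3.54 ± 0.97 in PEA1, 1.66 ± 0.45 in CP70 and 0.71 ± 0.12 in A2780, and it overlaps the non-coding gene LHX1-DT. The MEIS1 start gave 8.32 ± 0.95 in PEO1 and 7.69 ± 0.38 in PEO4, which overlapped, 2.99 ± 0.32 and 2.85 ± 0.43 in PEA2 and PEA1, which overlapped, and 1.12 ± 0.22 in A2780 against 0.51 ± 0.12 in CP70. Its percentile was 58.2 in PEA2, 55.2 in PEO1, 51.9 in PEO4, 41.8 in PEA1, 17.1 in A2780 and 2.3 in CP70. In FPKM, GATA6 separated the A2780 pair (1.10 ± 0.31 and 1.62 ± 0.15) from the other 4 lines (2.79 to 4.09) at a start that GATA6-AS1 overlaps. The percentile of this start was 66.5 in PEA1 and 54.1 in PEA2. It was 25.4 in PEO1 and 24.8 in PEO4, nearer to the 18.3 of CP70 and 16.4 of A2780. The single distal window of GATA6, 43.8 kb past the start, was at 6.38 ± 1.06 in PEO1 and 4.65 ± 0.56 in PEO4 and below 1 FPKM in all other libraries.

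**Figure D3:**
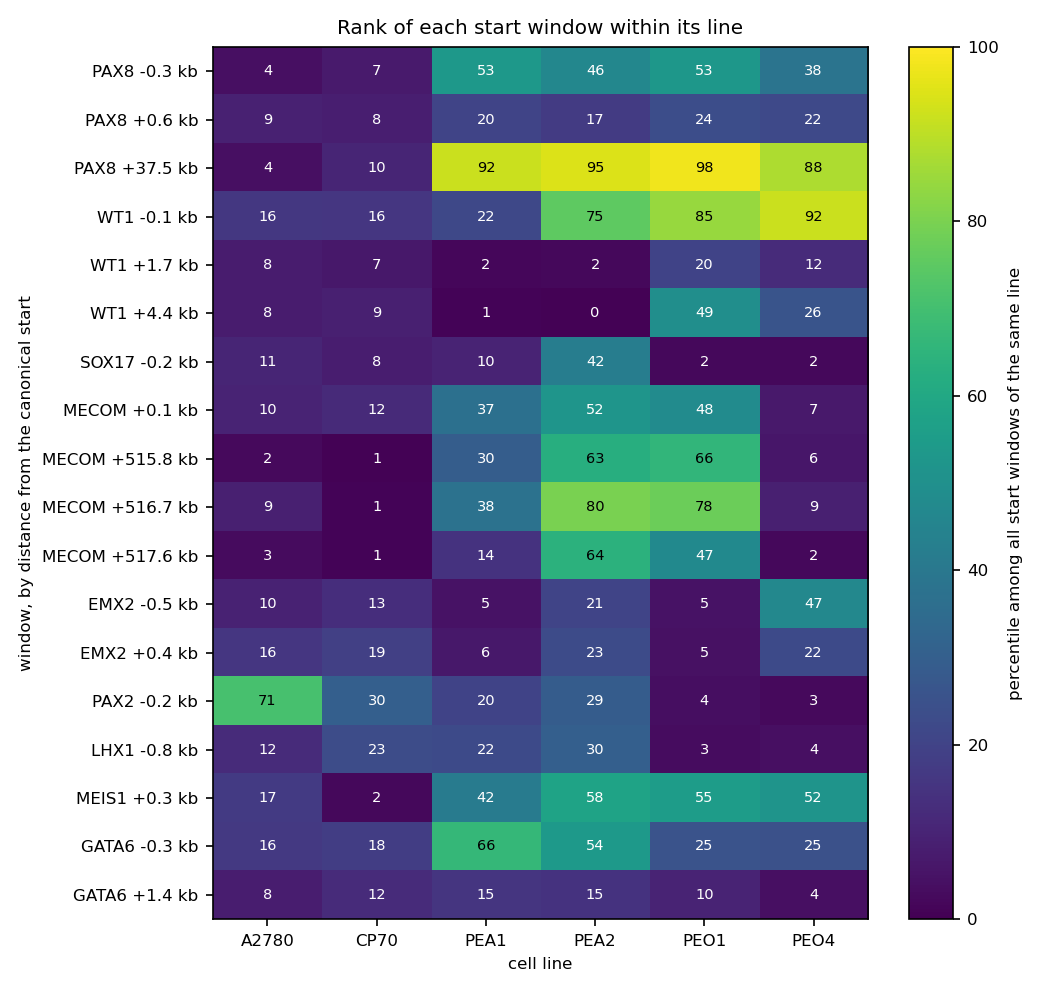
Percentile of each start window of the 9 genes (rows, with the distance of the window centre from the canonical start in kb) among the 13532 canonical start windows of the same line (columns), as colour and number. The internal PAX8 start stands at the 87.6th percentile or above in the 4 serous lines and the PAX2 start is highest in A2780 at 70.8.

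Variation among the 6 lines was tested with limma's moderated F test on log2(FPKM + 0.1), called at adjusted p below 0.001 and a range of line means above 2. Of 94 tested member windows 70 were called, or 74.5%, against 71.4% of all 74141 windows tested, so the share of members was near that of the table. All 4 tested promoter windows of PAX8, all 6 of WT1, all 5 of MECOM and all 3 of MEIS1 were called; 0 of the 3 at GATA6 and 0 of the single promoter windows of SOX17, PAX2 and LHX1 were, although the adjusted p of the GATA6 start was 2.1e-13, with a log2 range of 1.84. Of the 2 EMX2 promoter windows 1 was called. These ranges moved with the scaling. With each library centred on its median, the PAX8 outer start fell to a range of 1.58 and the MECOM outer start to 1.84, and those of SOX17, PAX2 and LHX1 became 2.39, 3.39 and 2.38. Uncentred, the ranges were 5.46 at the internal PAX8 start, 4.93 at the inner MECOM start, 4.12 at WT1 and 3.81 at MEIS1. The WT1 range fell to 2.55 with centring and 2.18 with quantile normalization, and the MEIS1 range to 2.44 and 2.11. Of the 555 steps between neighbouring lines over the 111 windows, 246 (44.3%) had no overlap of libraries, against 40.3% over all windows.

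Platinum-resistant and sensitive lines were then compared pair by pair. A window was called at a log2 fold change above 2 in size and a Benjamini-Hochberg adjusted p below 0.001 by limma over all windows of the pair, with a looser call at 1 and 0.05. In the A2780 pair only 31 member windows passed 1 FPKM on average. Of these 0 were called by limma, against 0.428% of all windows called higher and 0.369% lower in CP70. An unadjusted limma p below 0.05 was found at 14 of the 31, and the share of all windows at that level is not given. At the looser call 2 were higher and 0 lower, against 11.4% and 1.1% of all windows. Both lay in the upstream LHX1 cluster, where the window at -16.1 kb read 0.84, 0.70 and 0.60 FPKM in A2780 and 1.44, 1.38 and 2.18 in CP70 (log2 fold change 1.11, SE 0.28, adjusted p = 6.26e-04). The members' median log2 fold change was 0.38, below the 0.59 of all windows.

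In the PEA pair 3 of 80 tested member windows were called higher in PEA2 and 1 lower, against 11.2% of all windows higher and 1.42% lower. The split turned with the scaling, to 1 higher and 2 lower with median centring, 1 and 3 with quantile normalization and 0 and 2 with the median of each 5 Mb bin removed. None of the 23 promoter windows tested was among the calls, and of all promoter windows 1.48% were higher and 0.743% lower. MECOM held 2 of the 3, the larger at chr3:168959700-168960700 in intron 2, 421 kb past the outer start, where PEA1 read 0.77, 0.50 and 0.77 FPKM and PEA2 4.84, 4.57 and 4.75 (log2 fold change 2.65, SE 0.24, adjusted p = 6.08e-27). The median of the other windows in the 5 Mb around MECOM was 1.26 in this pair, and with the bin median removed the change fell to 1.32 and was not called. The third was at EMX2, centred at -4.1 kb from the start, at 0.51, 0.31 and 0.38 in PEA1 and 2.31, 1.62 and 2.04 in PEA2 (2.06, SE 0.29, adjusted p = 1.25e-11). It was not called at 1.69 with centring, 1.62 with quantile normalization or 0.46 with the bin median removed. The other windows in the 5 Mb around EMX2 had a median change of 1.53. The bin medians removed were those of all fitted windows of the bin, the members' own included. The call that fell was in intron 6 of MEIS1, 11.1 kb past the start, with 2.88, 3.40 and 1.68 in PEA1 and 0.33, 0.81 and 0.40 in PEA2 (-2.19, SE 0.27, adjusted p = 3.75e-15). The libraries of both lines were apart at all 3 named windows, which was a condition for naming them. Leaving out PEA1 replicate 2 took the EMX2 window to 1.93 and the MEIS1 window to -1.99, leaving out PEA2 replicate 1 took the MEIS1 window to -1.97, and each then missed the threshold.

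At the looser call 19 member windows were higher and 9 lower in PEA2, against 29.7% and 9.27% of all windows. WT1 contributed 3 promoter windows, all higher; its start rose by a log2 fold change of 1.09 (SE 0.23, adjusted p = 6.12e-06). PAX8 contributed 6 distal windows, all lower and at its 3′ part, while its internal start changed by 0.13 (SE 0.23, adjusted p = 0.63). The median change was 0.10 over the members and 0.31 over all windows.

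Most member calls came from the PEO pair. Of 95 tested windows 4 were called higher in PEO4 and 20 lower, against 2.72% and 5.78% of all windows. MECOM held 17 of the 20 that fell, including all 5 of its promoter windows and 12 of 25 tested distal windows; the inner start changed by -2.83 (SE 0.15, adjusted p = 4.51e-18), the outer start by -2.18 (SE 0.19, adjusted p = 1.77e-12) and the window at 1.0 kb by -2.71 (SE 0.13, adjusted p = 1.88e-19). The largest fall at a distal MECOM window was at 502 kb in intron 2, from 3.44, 2.53 and 2.56 FPKM in PEO1 to 0.17, 0.38 and 0.30 in PEO4 (-2.96, SE 0.33, adjusted p = 5.07e-10). MECOM's surroundings moved too: 134 of 142 other windows in its 5 Mb bin were lower in PEO4, with a median of -1.76, against a median of -2.07 over the 30 tested MECOM windows. The MECOM outer start stood at -1.83 with median centring and -1.76 with quantile normalization, and was not called under either. Nor were the promoter window at 514.9 kb (-1.88 and -1.77) and the window at 421 kb (-1.90 and -1.79). With the bin median removed from each library, the member calls in this pair numbered 4 higher and 0 lower, and the MECOM inner and outer starts stood at -1.26 and -0.60. In the PEA pair the inner start changed by 0.73 (SE 0.23) and by -0.60 with the bin median removed. Whether copy number has a part in the MECOM change was not tested.

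EMX2 was the member that rose in PEO4, with 3 of the 4 higher calls. Its first start window changed by 2.16 (SE 0.17, adjusted p = 1.84e-13), and 2 windows past the gene, at 10.3 and 11.2 kb, by 2.49 (SE 0.28) and 2.99 (SE 0.23, adjusted p = 5.90e-14). The latter, chr10:119313000-119314000, read 0.51, 0.61 and 0.56 FPKM in PEO1 and 5.76, 5.09 and 4.58 in PEO4. The median of the 117 other windows in its 5 Mb bin was -0.35, opposite in sign. The canonical start window rose by 1.25 (SE 0.22, adjusted p = 3.82e-06), under the threshold.

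The remaining calls in the PEO pair were at 4 distal windows of WT1, PAX8 and MEIS1. WT1 was called higher at a window over intron 3, 8.9 kb into the gene, with 0.51, 1.48 and 1.23 FPKM in PEO1 and 4.24, 3.94 and 4.73 in PEO4 (2.02, SE 0.25, adjusted p = 7.14e-09), while its start changed by 0.32 (SE 0.10). This call was lost at 1.60 without PEO1 replicate 1, the lowest of the 3 and at 1.95 without PEO4 replicate 3. PAX8 fell at a window upstream at -10.2 kb, from 3.44, 3.75 and 2.79 to 0.41, 1.06 and 0.70 (-2.13, SE 0.27, adjusted p = 1.09e-08; -1.83 and not called without PEO4 replicate 1, and -1.79, -1.65 and -1.82 and not called with centring, quantile normalization and 5 Mb medians removed), while the internal start changed by -0.85 (SE 0.09, adjusted p = 4.27e-10) and the outer start by -0.49 (SE 0.13, adjusted p = 1.56e-03). MEIS1 fell in 2 windows 21.0 and 21.9 kb past its start, the first from 4.35, 4.45 and 4.12 to 0.64, 0.82 and 1.05 (-2.26, SE 0.22, adjusted p = 4.34e-11; -1.92, -1.80 and -1.79 and not called under the 3 scalings), and its start changed by -0.11 (SE 0.13, adjusted p = 0.47).

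At the looser call 10 member windows were higher and 36 lower in PEO4, against 9.63% and 23.6% of all windows. The members' median was -0.78 and that of all windows -0.30, and 30 of the 95 tested windows belong to MECOM. With each library centred on its median the member calls were 4 higher and 7 lower, and with quantile normalization 4 and 5. Over all windows the calls in PEO4 went from 2109 higher and 4485 lower to 3255 and 2523 under median centring, in PEA2 from 7436 and 938 to 4569 and 1797, and in CP70 from 159 and 137 to 40 and 234.

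**Figure D4:**
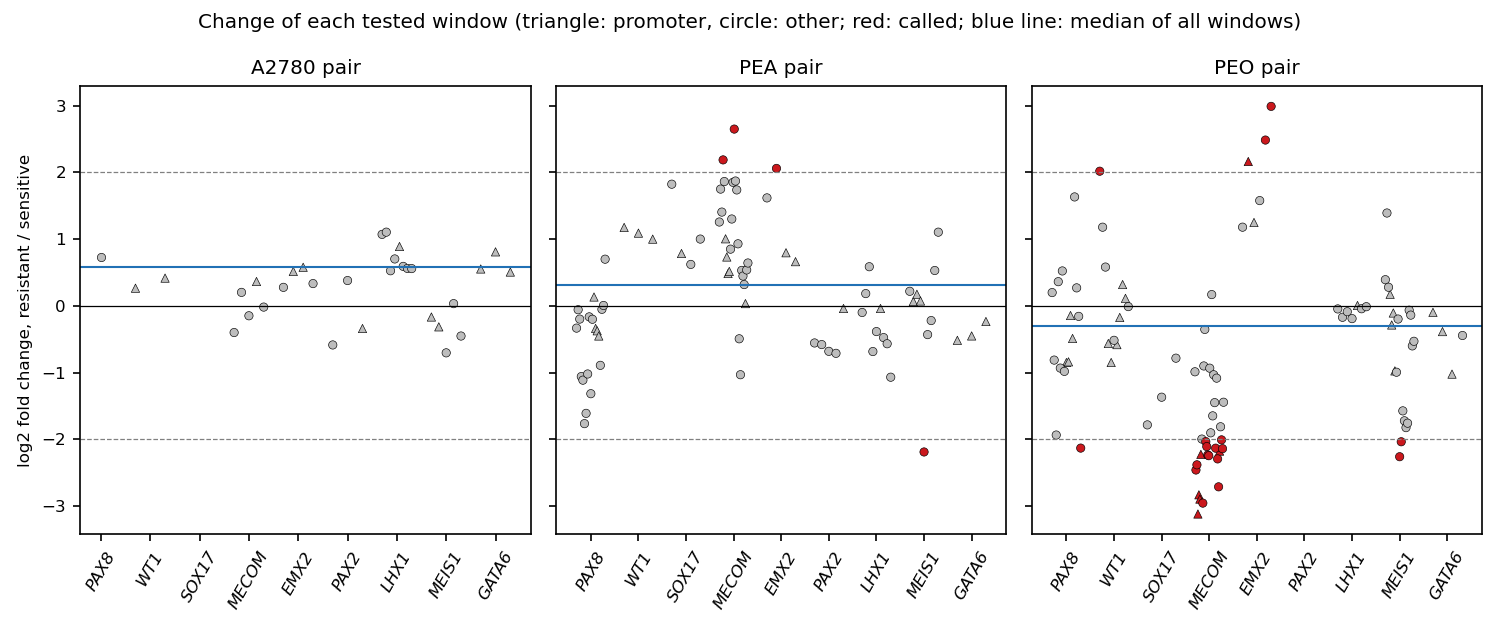
Log2 fold change (resistant over sensitive, y axis) of every tested window of each gene (x axis) in the 3 pairs; triangles are promoter windows, circles other windows, red windows were called, dashed lines mark 2 and -2 and the blue line the median of all windows. MECOM windows lie around -2.07 in the PEO pair and mostly above 0 in the PEA pair, where the MECOM starts turn negative once the 5 Mb bin median is removed, and EMX2 windows rise in PEO4 to 2.99.

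The reference letters of the windows that were called showed short words of transcription factor sites at 1 or a few places each. Shown are a GATA word in the MECOM window called in both serous pairs, the AP-1 words in the EMX2 and MEIS1 windows, and a TEAD word in the WT1 and PAX8 windows, each in capitals with 17 bases on both sides. They are from GRCh37, at chr3:168959748-168959787 on the plus strand for MECOM and, on the minus strand, at chr10:119297775-119297815 for EMX2, chr2:66683682-66683722 for MEIS1, chr11:32447833-32447872 for WT1 and chr2:114046457-114046496 for PAX8.
MECOM, GATA word: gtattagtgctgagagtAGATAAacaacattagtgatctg
EMX2, AP-1 word: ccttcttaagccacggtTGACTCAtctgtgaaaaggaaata
MEIS1, AP-1 word: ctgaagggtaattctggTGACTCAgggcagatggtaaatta
WT1, TEAD word: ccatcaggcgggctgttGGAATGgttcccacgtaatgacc
PAX8, TEAD word: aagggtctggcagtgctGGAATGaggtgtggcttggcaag

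Over windows of 1001 bases these words are common: 35.3% of the 64052 non-promoter windows of the table hold TGACTCA, 39.1% AGATAA and 49.5% GGAATG, and the matches are read as description only. Of the 8 named distal windows 2 held TGACTCA, and the MEIS1 window called in the PEA pair held none of the 8 words.

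Changes were also compared between pairs, as the difference of their log2 fold changes. In the PEA pair against the PEO pair 32 of 108 tested member windows differed, against 26.6% of all windows; 21 of the 32 were at MECOM, 5 at MEIS1, 3 at PAX8 and 3 at SOX17, and 30 were more positive in the PEA pair. The MECOM window at 421 kb, which rose in PEA2 and fell in PEO4, differed by 4.90 (SE 0.30, adjusted p = 1.44e-18). The other windows in the 5 Mb around MECOM had medians of 1.26 and -1.76 in these pairs. In the A2780 pair against the PEO pair 14 of 91 differed, against 8.12%, and in the A2780 pair against the PEA pair 1 of 61, against 12.8%. These comparisons share libraries with one another, and their directions moved with the scaling: under median centring the split was 17 more positive and 13 more negative in place of 30 and 2 for the PEA against the PEO pair, and 1 and 7 in place of 11 and 3 for the A2780 against the PEO pair. With 5 Mb medians removed the splits were 4 and 13 for the former and 0 and 8 for the latter.

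All 3 pairs were then joined in 1 comparison of resistant with sensitive lines. With lines as replicates and the pair as a block, 0 of 94 member windows were called by limma, against 0% of all windows; 4 had an unadjusted p below 0.05, and the smallest adjusted p was 1.00. Of the 25 member windows tested in every pair 4 were higher in all 3 resistant lines and 1 was lower in all 3. The share over all windows is not given for these counts or for that of unadjusted p below 0.05. The median log2 difference was -0.13 over the members and 0.13 over all windows.

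Genes with related roles were examined at their start windows in the same way. Of 34 genes of the intermediate mesoderm and duct, paralogs and partners of the members, and tubal or serous epithelium, 24 had a start window in the table and 16 varied among the lines, where 71.4% of all windows did. In the pairs only MEIS2, a paralog of MEIS1, was called, falling from 9.48 to 2.20 FPKM in PEO4 (-2.04). This is close to the threshold of 2, and its value under the other scalings is not given. The widest ranges were at MSLN, WFDC2 and FOXJ1. MSLN, which encodes the serous surface protein mesothelin, read 13.2 FPKM in PEO1, 15.4 in PEO4 and 0.87 in A2780. Its percentile was 82.9 in PEO4, 76.2 in PEO1, 32.6 in PEA1, 17.9 in CP70, 9.8 in A2780 and 7.5 in PEA2. WFDC2, which encodes HE4, read 14.5 in PEO4 and 1.00 in A2780. Its percentile was 88.6 in PEA2, 80.7 in PEO4, 76.8 in PEA1, 45.4 in PEO1, 15.2 in CP70 and 13.0 in A2780. FOXJ1, the regulator of ciliated cells, read 23.5 in PEO4, 8.98 in PEO1 and 1.77 in A2780. Its percentile was 94.6 in PEO4, 66.6 in PEA1, 58.9 in PEO1, 39.8 in A2780, 34.7 in CP70 and 27.9 in PEA2. The next widest log2 ranges were 3.30 at DACH1 and 3.18 at OSR2. The low end at DACH1 was CP70 with 0.126 ± 0.058 FPKM, near the pseudocount of 0.1. The other lines ran from 0.850 in A2780 to 2.105 in PEO1.

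Markers of the labelled cell type were checked at their starts. The epithelial marker EPCAM stood at the 69.7th and 66.8th percentile of start windows in PEO1 and PEO4, at the 35.2nd in PEA2, the 7.1st in PEA1, and the 6.4th and 11.5th in A2780 and CP70. The order of the PEA lines was not shared by all markers: the keratin genes KRT8 and KRT18 stood at the 35.2nd and 29.7th percentile in PEA1 and the 19.8th and 11.7th in PEA2. KRT7 and CDH1 had the order of EPCAM, at the 4.0th and 6.1st percentile in PEA1 and the 20.3rd and 45.3rd in PEA2. CDH1 stood lower in PEO1 and PEO4 than in PEA2, at the 16.7th and 26.8th percentile. All 5 epithelial marker genes had a start window and all 5 varied, as 71.4% of all windows did. Of the mesothelial markers LRRN4 was at the 95.5th percentile in PEA2, the 73.3rd in PEA1, the 63.8th in PEO1 and the 30.5th in PEO4. UPK3B was highest in PEO1 at 9.18 FPKM, at the 41.9th percentile in PEO4 and the 0.8th in PEA2, and CALB2 did not vary past the threshold. None of the 7 stromal, endothelial and haematopoietic markers had a start window in the table.

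The genes whose start windows were most like each member's over the 18 libraries are given as a description, since the libraries of a line share their source and their background. For WT1 they were GRHL2 and CLDN3 (Pearson's r = 0.99 for both), at 22.2 and 13.2 FPKM in PEO1 and 0.50 and 0.84 in A2780. For MEIS1 they were CYB5A (0.99) and ZFPM2 (0.98), for PAX8 PTK2B and PRKAA2 (0.98), for MECOM BMP3 (0.96) and TMEM178B (0.95), and for GATA6 DYNLT4 and SPATC1L (0.95). The values were lower for EMX2 (GPR153, 0.92, and UNC13D, 0.90), SOX17 (RANBP3L and PDCL2, 0.88), PAX2 (GPR37L1, 0.87, and PRDM9, 0.86) and LHX1 (PLLP, 0.87, and NLRC5, 0.86).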

How the data were processed

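ATAC-seq was measured in 18 libraries, 3 for each of 6 lines. The authors mapped read pairs on hg19 (Bowtie2, 1 placement per read), dropped reads from the mitochondrion or the ENCODE blacklist, counted the rest per window with featureCounts, and deposited them as FPKM; no shift of read ends is described. They also removed duplicates with Picard for some analyses, and whether the deposited values precede that step is not given in the sources used here. The versions are not given in the sources used here. Every window of the deposited table exceeded 2 FPKM in at least 2 libraries, so closed windows are absent, and starts of 69.4% of 19504 protein-coding genes were held by a window. All values (100%) were whole multiples of 1 read to within 0.01 of a read, which gave reads and library totals for windows of 1001 bases that start every 900.

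Gene spans and starts came from GENCODE release 44 on GRCh37, whose chromosome lengths matched the table at 23 of 23 steps. Members and gene lists were chosen with earlier results of these data known. Values were taken as log2(FPKM + 0.1), which understates changes of low windows. All windows averaging more than 1 FPKM in the compared libraries were fitted together with limma 3.58.1 in R 4.3.3 (trend in place of the study's voom weights), with Benjamini-Hochberg adjustment and the study's thresholds of 2 and 0.001. The fits were tested on simulated data. Alternatives were other pseudocounts, filters, scalings, thresholds and spans, and each library left out. Named windows were the start windows of all members, every called promoter window, the called distal window of largest change per member, pair and direction with libraries apart, context genes of widest range (1 is not reported here) and 2 genes per member by correlation; other windows given with values were chosen after their values were seen. Replicate libraries differed beyond sampling noise (chi-square of 1.07 to 2.1 per window over 18 library pairs). Read numbers bound counting error only.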

Additional observations from a re-analysis of the deposited data

Results flagged for a closer look

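The change between the sensitive and the resistant line differed between pairs at 9 of the named windows by the test of the difference (limma, 12 libraries). Named windows other than starts were chosen because they were called in a pair of these data, which favours such a difference. Of all windows 26.6% differed for the PEA against the PEO pair, 8.12% for A2780 against PEO and 12.8% for A2780 against PEA. Directions over the member windows moved with the scaling, as given above. Values are the log2 fold change of the first pair minus that of the second.

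At MECOM the A2780 pair minus the PEO pair was 2.54 at the outer start. It was 2.47 and 2.30 at the inner start windows 517.6 and 515.8 kb into the gene. The PEA pair minus the PEO pair was 2.21 at the outer start. It was 4.13, 3.57 and 3.38 at the inner start windows 517.6, 516.7 and 515.8 kb into the gene. The promoter window at 514.9 kb, named because it was called, gave 2.30 and 2.74 in these 2 comparisons. The MECOM window at 421 kb gave 4.90 in the PEA pair minus the PEO pair and -3.07 in the A2780 pair minus the PEA pair. Medians of the other windows in the same 5 Mb were 0.35 (A2780 pair), 1.26 (PEA pair) and -1.76 (PEO pair), and the part of copy number was not tested.

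The PAX8 window at -10.2 kb gave 2.72 in the A2780 pair minus the PEO pair and 2.83 in the PEA pair minus the PEO pair, with bin medians of 0.56, -0.23 and -0.26. The EMX2 window 11.2 kb past the start gave -2.66 in the A2780 pair minus the PEO pair, with bin medians of 0.55 and -0.35. The MEIS1 window 21.0 kb past the start gave 2.55 in the PEA pair minus the PEO pair, with bin medians of 0.39 and -0.25. Lines had 3 libraries each, too few for a test of single outlying libraries.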

How the results depend on the processing

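Counts of calls moved more than signs. Of 705 fold change values of named windows under alternatives 603 kept their direction and call, 50 lost the call and 52 changed sign, of which 0 were called windows; the cause was not tested. Few reads limit low windows, and a higher pseudocount or minimum shrinks or removes them.

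Member calls in the A2780 pair (0) became 2 at thresholds of 1 and 0.05. Those in the PEA pair (4) became 1 at a pseudocount of 0.5, 0 at 1, 0 at a minimum mean of 5 FPKM, 2 with 5 Mb medians removed and 28 at the looser thresholds, and 2 to 6 with 1 library left out (2 without PEA2 replicate 1). Those in the PEO pair (24) became 10, 5 and 5 under the same pseudocounts and minimum, 11 with median centring, 9 with quantile normalization, 4 with 5 Mb medians removed and 46 at the looser thresholds, and 20 to 24 with 1 library left out. Differences of the A2780 and PEA pairs (1) became 0 at a pseudocount of 1 and at a minimum of 5, 11 with no filter, 2 with centring, 5 with quantile normalization, 2 with 5 Mb medians removed, 25 at the looser thresholds and 1 to 3 with 1 library left out. Those of the A2780 and PEO pairs (14) became 7 and 3 at the pseudocounts, 3 at the minimum, 8, 7 and 8 under the 3 scalings, 50 at the looser thresholds and 11 to 16 with 1 library left out. Those of the PEA and PEO pairs (32) became 14 at a pseudocount of 1, 5 at the minimum, 17 with 5 Mb medians removed, 58 at the looser thresholds and 31 to 37 with 1 library left out. Windows varying among lines (70) became 35 at a pseudocount of 1, 8 at the minimum, 46, 44 and 45 under the 3 scalings and 66 to 76 with 1 library left out. A count test on recovered reads was planned and is not reported, since the deposited unit is FPKM.

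With the replicate block the member calls were 0 (A2780), 4 (PEA) and 24 (PEO), as without it. Within the pairs, deviations of same-numbered libraries from their line means correlated at -0.158 to 0.0643. Differently numbered libraries were not compared, so these values do not settle whether the numbers pair samples.

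Signs changed as follows. In the A2780 pair, centring gave WT1 -0.16, MECOM -0.21, EMX2 -0.061 and GATA6 -0.025 at the starts, -0.071 at GATA6 1.4 kb and -0.24 at EMX2 11.2 kb; quantile normalization gave WT1 -0.046, MECOM -0.064 and EMX2 11.2 kb -0.082; removal of 5 Mb medians gave WT1 -0.068, GATA6 -0.025 and -0.071, and EMX2 11.2 kb -0.17. In the PEA pair, centring gave the internal PAX8 start -0.24, MECOM -0.34 and MEIS1 -0.30; quantile normalization gave -0.00094, -0.25 and -0.16, and the MECOM window at 514.9 kb -0.0017; removal of 5 Mb medians gave the MECOM outer start -1.30, its inner windows -0.32, -0.60, -0.84 and -0.81, the EMX2 starts -0.94 and -0.80, LHX1 0.48 and MEIS1 -0.48. With 1 library left out, PEA values ran from -0.15 to 0.15 at PAX2, -0.22 to 0.075 at LHX1, -0.031 to 0.085 at MECOM, -0.054 to 0.15 at MEIS1 and -0.012 to 0.26 at the internal PAX8 start, and LHX1 in the PEO pair from -0.18 to 0.16. In the PEO pair PAX8 at 0.6 kb, MEIS1, GATA6 and MEIS1 at 11.1 kb became 0.20, 0.24, 0.25 and 0.15 with centring, 0.17, 0.072, 0.20 and 0.18 with quantile normalization, and 0.16, 0.36, 0.46 and 0.27 with 5 Mb medians removed, which also gave LHX1 -0.10.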
